A study of Mus musculus with 12 samples.

Results

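The genes that move mitochondria along axons, and the gene that holds them in place, were followed in the lumbar spinal cord of the MitoCharc1 mouse, a model of Charcot-Marie-Tooth disease type 2A (CMT2A). The set was written by name: the Miro adaptors Rhot1 and Rhot2, the Milton adaptors Trak1 and Trak2, the kinesin-1 heavy chains Kif5a, Kif5b and Kif5c, the kinesin-3 motor Kif1b, the static anchor Snph and the armadillo-repeat protein Armcx3. It holds 10 of the 49548 genes counted, and all 10 passed the filter on low counts in every comparison. Miro proteins are calcium-binding GTPases of the outer mitochondrial membrane. Milton proteins couple them to kinesin-1 for travel away from the cell body and to dynein for the way back, and syntaphilin, the product of Snph, ties axonal mitochondria to microtubules. Mitofusin-2, the protein altered in CMT2A, is known to bind Miro and Milton proteins, which is why these genes bear on axonal transport in the disease.

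RNA-seq counts were available for 8 MFN2 and 4 WT animals, all untreated and 30 days old, with 1 library each. The labels name the tissue as spinal cord and the methods as its lumbar part. MFN2 mice carry a human MFN2 transgene with the R94Q change, driven by the rat Eno2 promoter in neurons, in addition to their own Mfn2. The labels give the transgene as Tg(Eno2-MFN2*R94Q)L51Ugfm on a B6;D2 background and the WT strain as C57BL/6, as does the paper's list of abbreviations, whereas its methods speak of WT littermates, so that strain background and transgene cannot be told apart here. Total counts ranged from 19359454 to 26738930 per library, and every library is named below by its number. Libraries 41 to 43 (MFN2) and 44 to 47 (WT) form a run of numbers that holds both genotypes, while libraries 72 to 76 are all MFN2, so that in this second run genotype and library number cannot be told apart. What the numbers stand for is not stated in the labels. In whole cord, fewer cells of a type and less RNA per cell cannot be told apart.

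Before any comparison, 1 library stood apart from its label. MFN2 library 43 had 1032 CPM (counts relative to the library total, scaled by the TMM method) of Slc17a7, a glutamate transporter gene of forebrain neurons, against 0.0873 to 13.6 CPM in the other 11 libraries. Its summed level of 8 forebrain genes was 4685 CPM, led by Camk2a, against 108.5 to 207.4 CPM elsewhere. Its 7 caudal Hox genes summed to 39.6 CPM, led by Hoxb8, against 229 to 296 CPM, and its 6 motor neuron genes to 35.5 CPM, led by Slc5a7, against 154 to 370 CPM in the others, led by Prph. The motor neuron gene Chat was at 5.21 CPM there and at 16.4 to 35.3 CPM in the others. Schwann cell genes were high in library 43 and in library 73, at summed levels of 290 and 312 CPM against 42.1 to 82.3 CPM in the other 10, where Pmp22 led. Xist was at most 0.267 CPM in libraries 41, 43 and 44, in which Ddx3y was at 66.4 to 89.4 CPM, and at 258 to 402 CPM in the other 9, with Ddx3y at 0 in all 9. The labels do not give the sex of the mice.

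Each Miro and each kinesin holds a P-loop, the stretch that grips the phosphates of GTP or ATP. Its coding sequence is shown because paralogs with long identical stretches could share reads, and it is among the most conserved parts of these proteins. No window is shown for Kif5b, whose longest runs shared with Kif5a and Kif5c are given below. The windows are 84 bases of coding sequence from GENCODE M21 transcripts on GRCm38, 5′ to 3′ on the coding strand, with the P-loop codons at bases 31 to 54. Capitals mark bases that differ from the first sequence of each set.
Rhot1: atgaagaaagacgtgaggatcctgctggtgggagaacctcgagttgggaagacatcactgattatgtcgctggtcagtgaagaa
Rhot2: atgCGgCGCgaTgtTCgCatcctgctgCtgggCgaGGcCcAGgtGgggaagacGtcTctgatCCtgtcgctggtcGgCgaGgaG
Kif5a: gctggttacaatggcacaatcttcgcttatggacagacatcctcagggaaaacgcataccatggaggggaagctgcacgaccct
Kif5c: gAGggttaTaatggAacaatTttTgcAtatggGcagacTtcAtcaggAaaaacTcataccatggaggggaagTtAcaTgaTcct
Kif1b: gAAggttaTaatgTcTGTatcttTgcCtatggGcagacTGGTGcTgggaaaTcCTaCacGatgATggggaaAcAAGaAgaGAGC

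The Rhot2 window differed from that of Rhot1 at 25 of 84 bases (70.2% identical). Kif5c differed from Kif5a at 16 bases (81.0% identical) and Kif1b from Kif5a at 32 (61.9% identical). On the genome the Rhot1 window lies in exons 1 and 2 on the plus strand, at chr11:80209287-80209323 and chr11:80220258-80220304, and the Rhot2 window in exons 1 and 2 on the minus strand, at chr17:25844400-25844436 and chr17:25844267-25844313. The Kif5a window spans exons 3 and 4 on the minus strand (chr10:127248030-127248095 and chr10:127247610-127247627), and the Kif5c window spans exons 3 and 4 on the plus strand (chr2:49680173-49680238 and chr2:49688653-49688670). That of Kif1b lies within exon 4 on the minus strand (chr4:149274937-149275020). All are coding exons.

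Over the whole coding sequences, the longest run of identical bases between paralogs was far shorter than a 75-base read. It is shown on the coding strand for the Miro pair, the Milton pair and the neuronal kinesin-1 pair.
Rhot1 and Rhot2: gaatatctcagagctgtt
Trak1 and Trak2: aggagcgaggcatctc
Kif5a and Kif5c: gagaacaacctggaacagcttac

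These runs are 18, 16 and 23 bases long. The Miro run is at chr11:80233949-80233966 in Rhot1 exon 8 and chr17:25842054-25842071 in Rhot2 exon 8. The Milton run is at chr9:121472404-121472419 in Trak1 exon 16 and chr1:58904000-58904015 in Trak2 exon 16, and the kinesin run at chr10:127233833-127233855 in Kif5a exon 23 and chr2:49752315-49752337 in Kif5c exon 23. Kif5b shared runs of 17 bases with Kif5a and 20 bases with Kif5c. No 75-base run was shared between any of the 45 pairs of the 10 genes. Overlap with other genes was a larger matter for Rhot2, where 1307 of 4442 exonic bases (29.4%) also belong to Gm20683, a gene model on the same strand with a median count of 0, and 81 bases to Wdr90. Kif5b shares 182 exonic bases with AC113003.1 and 142 with Gm17036, both on the opposite strand, and the strand setting of the counting is not given in the sources used here.

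Per kilobase of exon, the axonal motors stood above the adaptors in every library. In WT mice, levels as RPKM (CPM divided by the union exon length in kilobases) were 282 ± 36.0 for Kif5a (SD, n = 4), the neuronal kinesin-1 mutated in a hereditary spastic paraplegia, 167 ± 7.98 for Kif5c, another neuronal kinesin-1, 126.5 ± 11.6 for Kif1b and 100.3 ± 13.3 for Kif5b, the kinesin-1 found in most cell types. Trak2 was at 42.4 ± 3.56 RPKM and Snph at 25.2 ± 1.47 RPKM. Trak1 at 14.7 ± 0.607 RPKM and Armcx3 at 14.0 ± 0.756 RPKM followed. Rhot1 at 8.14 ± 0.22 RPKM and Rhot2 at 5.09 ± 0.417 RPKM were the lowest. The Rhot2 level was divided by all its exonic bases, those shared with Gm20683 included, and how reads there were counted is not given. Kif5a exceeded Kif5c in all 12 libraries, by 1.44 to 2.00 times. The neighbours whose WT ranges overlapped were Kif1b with Kif5b, although Kif1b was the higher of the pair in each of the 12 libraries, and Trak1 with Armcx3, where Trak1 was the higher in 5 of 12. The order depended on the length used. The other length tried was that of the annotated transcript with the longest coding sequence. Over it, Kif1b came second at 218 RPKM, above Kif5c in 11 of 12 libraries, and Rhot1 at 18.3 ± 0.495 RPKM stood above Armcx3 in 10 of 12. Trak1 at 38.2 RPKM then lay well above Armcx3 at 14.2 RPKM, with Rhot1 between them, and its WT range overlapped that of Snph. The labels name an mRNA kit, and the study's methods name 3′ and poly(A) sequencing as well as a stranded total RNA kit with paired ends. If reads lay mainly at 3′ ends, division by length would not give levels that can be compared between genes.

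**Figure D1:**
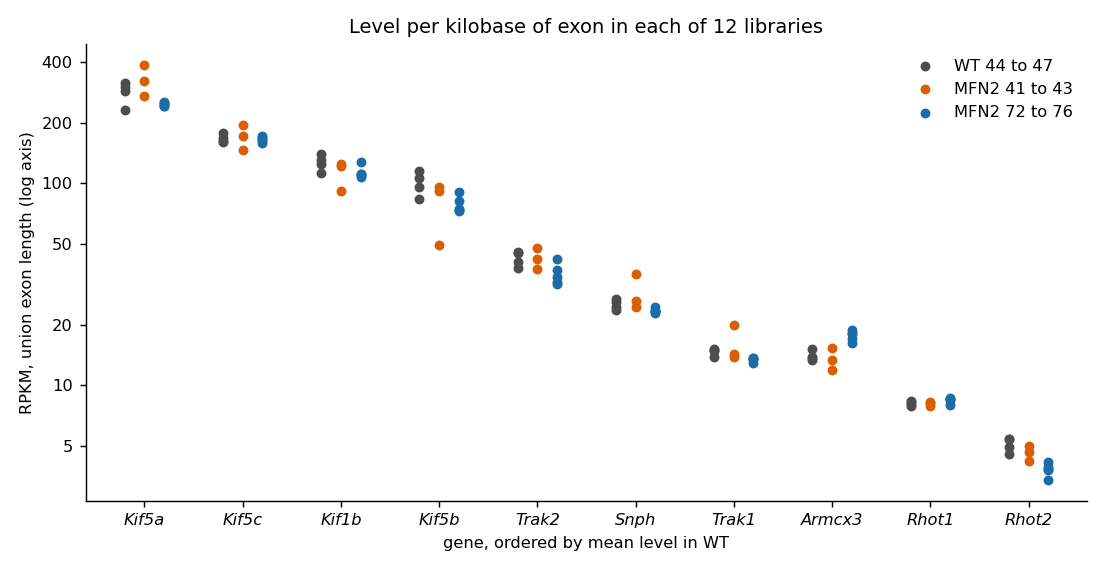
RPKM (union exon length, log axis) of each gene in each of 12 libraries, with genes ordered by their WT mean. The levels run from 282 RPKM for Kif5a to 5.09 RPKM for Rhot2 in WT mice. Trak1 and Armcx3 overlapped at this length but not over the transcript with the longest coding sequence.

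The first question was whether the R94Q transgene goes with another level of these genes. Over all 8 MFN2 and 4 WT libraries, none of the 10 passed an FDR of 0.05 (edgeR, quasi-likelihood F-test, Benjamini-Hochberg over 15942 genes), where 0 genes passed in all (0.0%), 2386 genes had an unadjusted p under 0.05, and DESeq2 called 200 genes and 0 of the 10. The furthest from 0 were Kif5b, at a log2 fold change of -0.34 (SE 0.15, edgeR FDR 0.310), and Rhot2, at -0.30 (SE 0.10, edgeR FDR 0.278). At an unadjusted p under 0.05 stood these 2, where 15.0% of all genes did. Armcx3 was at 0.20 (SE 0.11), Kif1b at -0.16 (SE 0.09) and Trak2 at -0.15 (SE 0.11). The other 5 lay between -0.03 and 0.03. Of the 10 values 4 were positive and 6 negative, with a median of -0.03, against 8094 positive and 7848 negative and a median of 0.00 over all genes tested. For none of the 10 did the MFN2 and WT libraries fall into ranges that do not overlap, as they did for 2.04% of genes tested. Without library 43, 0 of the 10 and 19 of all genes were called. Fitting the 2 runs of numbers as a term called no gene, and the log2 fold change of Kif5a moved to 0.21, that of Trak1 to 0.13 and that of Armcx3 to -0.05. The endogenous Mfn2 was at 206 ± 12.8 CPM (SD, n = 8) in MFN2 against 213 ± 15.2 CPM in the 4 WT libraries (log2 fold change -0.05, SE 0.07, edgeR FDR 0.733). Eno2, whose rat promoter drives the transgene, was at 537 ± 37.7 and 585 ± 38.7 CPM (-0.12, SE 0.07, edgeR FDR 0.392). The human transgene was not analysed here, and whether its reads were counted under mouse Mfn2 was not tested.

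**Figure D2:**
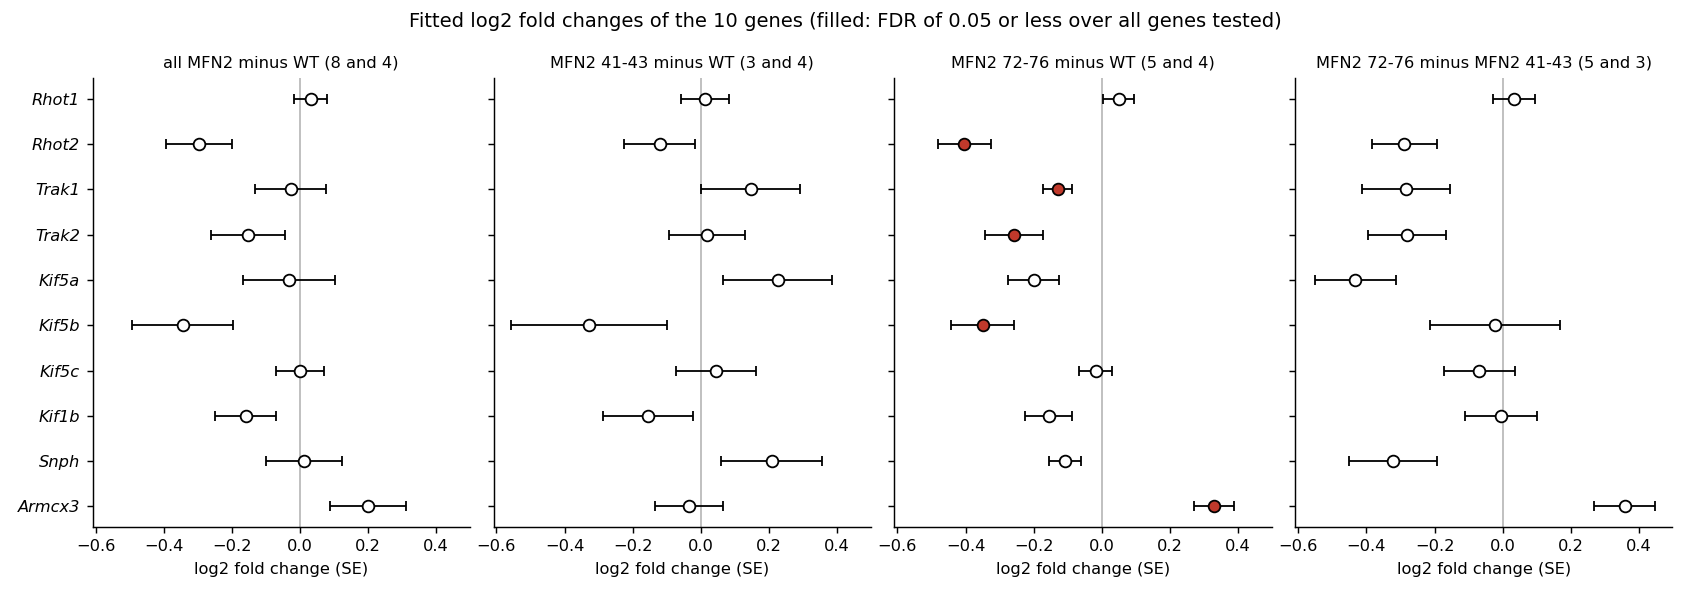
Fitted log2 fold changes (points) with SE (bars) of the 10 genes in the 4 comparisons, filled where the edgeR FDR was 0.05 or less over all genes tested. Filled points appear in the comparison of MFN2 libraries 72 to 76 with WT and in no other.

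Split by run of library numbers, both against the same 4 WT libraries, the set gave unlike counts. MFN2 libraries 41 to 43 differed from WT in 0 of the 10 genes, where 1 of 15200 genes was called (0.00658%) and 1083 had an unadjusted p under 0.05, none of the 10 among them (7.12% of all genes), and no member had ranges apart from WT (8.97% of all genes). MFN2 libraries 72 to 76 differed from WT in 5 of the 10 (edgeR quasi-likelihood test, FDR of 0.05 or less), where 3746 of 15743 genes were called (23.8%). Armcx3 was the member called higher (11.1% of all genes), and Rhot2, Trak1, Trak2 and Kif5b were called lower (12.7% of all genes). At an unadjusted p under 0.05 stood 8 of the 10, where 37.8% of all genes did. The median of the 10 was -0.14 on the log2 scale against 0.00 over all genes tested. MFN2 libraries 72 to 76 against MFN2 libraries 41 to 43, a comparison within the genotype, gave 0 of the 10 where 2.19% of 15633 genes were called (1.0% higher and 1.18% lower), and a median of -0.17 against -0.02 over all genes. Members at an unadjusted p under 0.05 in that comparison were Rhot2, Trak2, Kif5a, Snph and Armcx3, where 24.6% of all genes were. Without library 43 it gave 2 of the 10, Kif5a and Armcx3, and 2375 genes in all. The comparison of libraries 72 to 76 with WT does not contain library 43, except in the alternative with 3 groups in 1 fit, which uses every library.

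Of the Miro pair, Rhot2 was lower in the second run and Rhot1 was not called. Rhot2 was at 18.7, 22.3 and 20.7 CPM in MFN2 libraries 41, 42 and 43, at 17.2, 15.1, 17.0, 18.6 and 17.6 CPM in MFN2 libraries 72 to 76, and at 20.3, 24.2, 23.97 and 22.0 CPM in WT libraries 44 to 47. Every library from 72 to 76 lay below every other library, of either genotype, although library 75 at 18.6 CPM came close to library 41. Against WT the log2 fold change of libraries 72 to 76 was -0.40 (SE 0.08, edgeR FDR 0.00366), a fold of 0.756, and that of libraries 41 to 43 was -0.12 (SE 0.10, edgeR FDR 0.686). With a library left out, the latter ran from -0.18 to -0.05. Between the MFN2 runs the log2 fold change of Rhot2 was -0.29 (SE 0.09, edgeR FDR 0.121) and passed under no alternative, at 0.08 or more. For libraries 72 to 76 against WT, Rhot2 kept an FDR of 0.05 or less under every alternative run, at 0.0163 or less. Its counts were low for this set, at 301 to 583 reads per library. Rhot1 ranged only from 58.4 to 63.9 CPM over the 12 libraries, library 43 included at 61.4 CPM. Its log2 fold changes were 0.05 (SE 0.05) for libraries 72 to 76 and 0.01 (SE 0.07) for libraries 41 to 43 against WT.

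Both Milton genes were called lower in libraries 72 to 76. Trak1 was at 172, 170.4, 162.5, 171 and 169 CPM in those 5 libraries and at 191, 188, 186 and 173 CPM in WT libraries 44 to 47, and the lowest WT value, in library 47, lay just above the highest of the 5. MFN2 libraries 41, 42 and 43 had 173.5, 180.0 and 251 CPM, so that Trak1 in library 43 was the highest of all. The log2 fold change of libraries 72 to 76 against WT was -0.13 (SE 0.04, edgeR FDR 0.0488). Trak2 was at 229.7, 263, 224, 244 and 299 CPM in libraries 72 to 76 and at 271, 323, 288 and 319.6 CPM in WT. Library 76 was within the WT range and the other 4 below it. MFN2 libraries 41 to 43 had 339.8, 266 and 298 CPM of Trak2, with library 41 above the WT range, library 42 below it and library 43 inside. Its log2 fold change was -0.26 (SE 0.09, edgeR FDR 0.0465) for libraries 72 to 76 and 0.02 (SE 0.11, edgeR FDR 0.956) for libraries 41 to 43. With 3 groups in 1 fit, which takes in library 43, neither was called (edgeR FDR 0.437 for Trak1 and 0.139 for Trak2). With each of the 9 libraries left out in turn, Trak1 lost its call in 8 fits and kept it only without WT library 47, and Trak2 lost its call in 7 and kept it only without MFN2 library 76 or WT library 44. Without WT library 45 the FDRs of both exceeded 0.05, as did that of Kif5b, which left Rhot2 and Armcx3. Without WT library 44, 7 of the 10 were called, Kif5a, Kif1b and Snph now among them and Trak1 no longer. Of all genes, 2350 of 15697 were called without library 45 and 4517 of 15636 without library 44.

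Of the kinesin-1 heavy chains, 1 of 3 was called lower, where 12.7% of all genes were. Kif5b was at 581, 652.5, 591, 595 and 727 CPM in libraries 72 to 76 and at 670.5, 847, 766 and 917 CPM in WT, with library 76 inside the WT range and the other 4 below it. Its log2 fold change was -0.35 (SE 0.09, edgeR FDR 0.0194), a fold of 0.785. Kif5b was no longer called without WT library 45 (-0.32, edgeR FDR 0.0616). Nor was it called with 3 groups in 1 fit (-0.35, edgeR FDR 0.226), which takes in library 43. In MFN2 libraries 41, 42 and 43 it was at 735, 767 and 394.5 CPM. There the log2 fold change was similar, at -0.33, but with an SE of 0.23 (edgeR FDR 0.650), and without library 43 it was -0.08. Kif5a was at 1765, 1687, 1724, 1679 and 1740.0 CPM in libraries 72 to 76, within the WT values of 1616, 2192, 2090.0 and 1993 CPM, at a log2 fold change of -0.20 (SE 0.07, edgeR FDR 0.0679). Its 3 values in libraries 41 to 43, at 1893, 2238 and 2701 CPM, were all above the second run, and between the MFN2 runs the log2 fold change was -0.43 (SE 0.12, edgeR FDR 0.0859). Without library 43 that difference was -0.27 and passed the threshold (edgeR FDR 0.0240). Kif5c lay between 1042 and 1381 CPM over the 12 libraries, with a log2 fold change of -0.02 (SE 0.05) for libraries 72 to 76 against WT and of 0.04 (SE 0.12) for libraries 41 to 43.

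Kif1b, whose isoforms carry mitochondria and synaptic vesicle precursors and were counted together, ranged from 1902 to 2244 CPM in libraries 72 to 76 and from 1970.0 to 2457 CPM in WT. The log2 fold change was -0.16 (SE 0.07, edgeR FDR 0.121) for libraries 72 to 76 and -0.15 (SE 0.13, edgeR FDR 0.684) for libraries 41 to 43. With a library left out, the latter ran from -0.224 to -0.0325. Library 43 had the lowest Kif1b level of all, at 1617 CPM. Snph ranged from 179.9 to 192 CPM in libraries 72 to 76 and from 185 to 211 CPM in WT, at -0.11 (SE 0.05, edgeR FDR 0.119). In libraries 41 to 43 it was at 192, 205 and 281 CPM. Neither gene passed the threshold in any of the 4 comparisons with all their libraries. For libraries 72 to 76 against WT, with each of the 9 libraries left out in turn, Kif1b was called in 2 fits and Snph in 1.

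Armcx3 encodes a protein of the outer mitochondrial membrane that binds Miro and Milton proteins, and it was the member that rose. It was at 66.4, 57.2, 59.98, 64.4 and 63.6 CPM in MFN2 libraries 72 to 76, at 47.3, 48.8, 48.6 and 53.4 CPM in WT libraries 44 to 47, and at 47.3, 54.1 and 42.2 CPM in MFN2 libraries 41, 42 and 43. All 5 libraries of the second run lay above all 7 of the first, MFN2 and WT alike. The log2 fold change against WT was 0.33 (SE 0.06, edgeR FDR 0.00234), a fold of 1.26, for libraries 72 to 76 and -0.03 (SE 0.10, edgeR FDR 0.906) for libraries 41 to 43. Between the MFN2 runs it was 0.36 (SE 0.09, edgeR FDR 0.0722), and without library 43 it was 0.29 and passed the threshold (edgeR FDR 0.0319). The gene is on the X chromosome (chrX:134756595-134761455), and Xist was high in all 5 libraries of the second run and in WT libraries 45 to 47. Without WT library 44 the log2 fold change of libraries 72 to 76 was 0.31 (edgeR FDR 0.00382). Over all 12 libraries it was 0.17 (edgeR FDR 0.323) with Xist as a covariate and 0.20 (edgeR FDR 0.395) without it. Ranges that did not overlap were seen for Rhot2, Trak1 and Armcx3 between libraries 72 to 76 and WT, where 19.8% of all genes had them, and for these 3 and Kif5a between the MFN2 runs, where 18.4% of all genes had them.

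**Figure D3:**
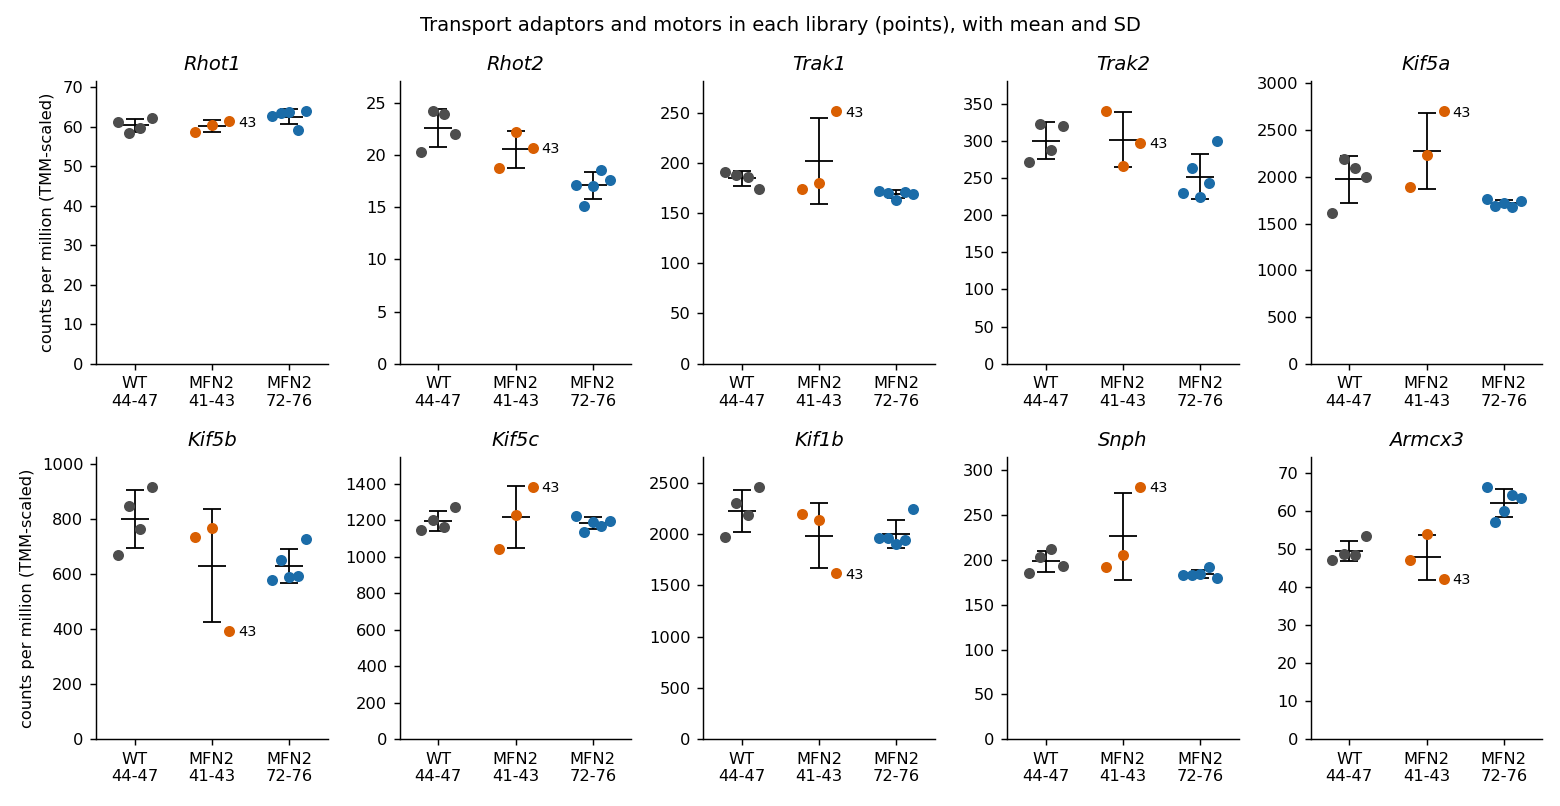
CPM of the 10 genes in each library (points), by genotype and run of library numbers, with mean and SD (bars); axes start at 0 and library 43 is marked. Armcx3 of MFN2 libraries 72 to 76 sits between 57.2 and 66.4 CPM, above the other 7 libraries, and Rhot2 between 15.1 and 18.6 CPM, below them.

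Ratios between paralogs within a library do not depend on how libraries are scaled. The log2 ratio of Rhot1 to Rhot2 was 1.42 ± 0.15 in WT (SD, n = 4), 1.55 ± 0.10 in MFN2 libraries 41 to 43 (SD, n = 3) and 1.87 ± 0.14 in MFN2 libraries 72 to 76 (SD, n = 5). The lowest value of the second run, 1.67, was just above the highest of the first, 1.65. The ratio of Trak1 to Trak2 overlapped between all 3 groups, at -0.70 ± 0.17, -0.59 ± 0.36 and -0.57 ± 0.16. Of the summed RPKM (union exon length) of the kinesin-1 heavy chains, Kif5a took 48.6% to 53.6% in WT libraries and 49.1% to 50.9% in MFN2 libraries 72 to 76. Kif5b took 17.2% to 19.9% and 14.7% to 18.0% in the same groups. In library 43 the shares were 61.4% for Kif5a and 7.86% for Kif5b. The log2 ratio of Kif5a to Kif5c was tight in the second run, at 0.54 ± 0.02, and spread from 0.49 to 0.87 in WT and from 0.86 to 0.97 in MFN2 libraries 41 to 43. These ratios are given as a description and were not tested.

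**Figure D4:**
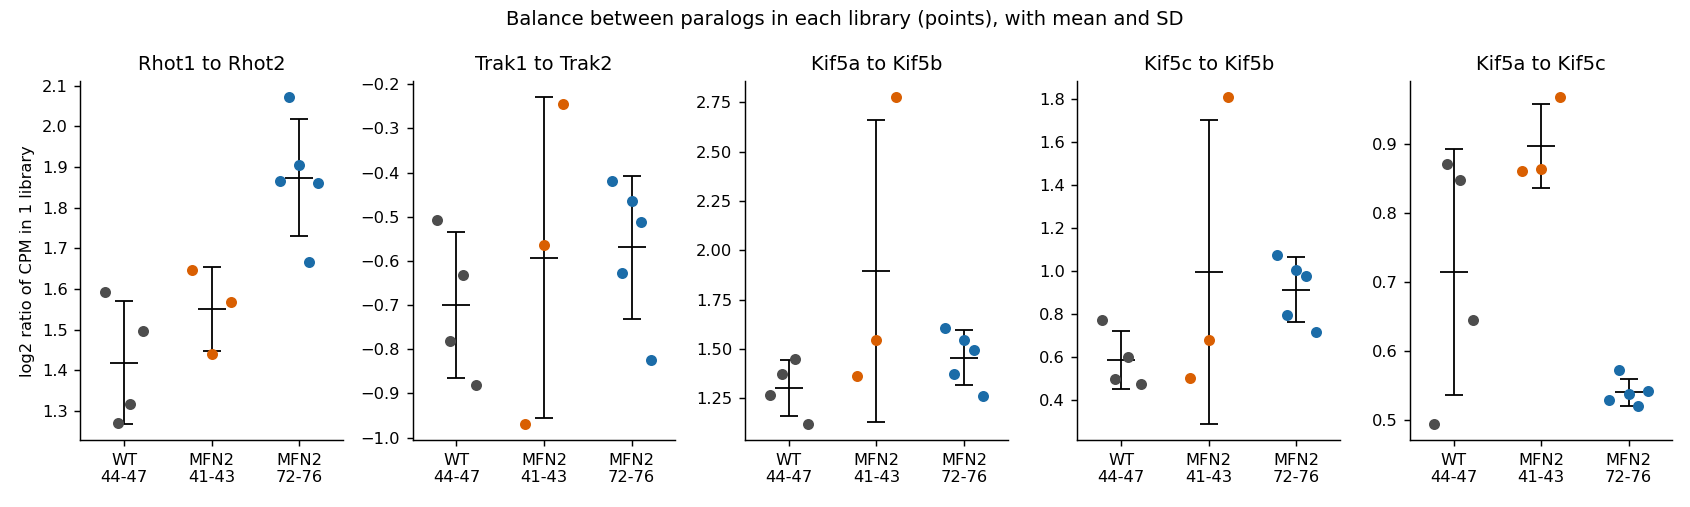
Log2 ratio of CPM of paralog pairs within each library (points), by genotype and run of library numbers, with mean and SD (bars); the vertical axes differ in range. The Rhot1 to Rhot2 ratio of MFN2 libraries 72 to 76 lies between 1.67 and 2.07, above all other libraries, and library 43 stands alone at 2.78 in the Kif5a to Kif5b ratio.

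Partners and relatives of these genes were read from a list of 41 other transport genes, of which 40 were tested. In the comparison of all 12 libraries, in that of libraries 41 to 43 with WT and in that between the MFN2 runs, 0 of the 40 were called. Between MFN2 libraries 72 to 76 and WT, 5 were called higher and 9 lower, or 14 of 40 where 23.8% of all genes were called, with a median log2 fold change of -0.06. Partners of the Miro and Milton proteins gave 2 higher and 2 lower of 10. Pink1, the kinase that marks damaged mitochondria and acts on Miro, was lower, at -0.59 (SE 0.08, edgeR FDR 0.000635), with 174, 201, 181, 171 and 202.5 CPM in libraries 72 to 76 and 232, 293, 301 and 289.5 CPM in WT, without overlap. Myo19, a myosin that docks on Miro and moves mitochondria on actin, was higher, at 0.98 (SE 0.15, edgeR FDR 0.000969), with 8.52, 12.3, 10.4, 12.4 and 9.43 CPM against 5.11, 4.43, 5.27 and 6.73 CPM. In MFN2 libraries 41, 42 and 43, Pink1 was at 274, 272 and 186 CPM, the last below the WT range. Myo19 was at 3.51, 6.80 and 4.46 CPM there, with every value below the second run. Mtx3, which encodes a metaxin, was lower at -0.18 (SE 0.05).

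The counts of the smaller lists that follow stand against the same 23.8% of all genes, 11.1% higher and 12.7% lower, and nothing is read from them about a list. Kif1c, a kinesin-3 related to Kif1b, was lower at -0.53 (SE 0.08, edgeR FDR 0.00102), with 134 to 170 CPM in libraries 72 to 76 and 198 to 251 CPM in WT. Library 43 was the lowest of all, at 117.5 CPM. Among factors that tune kinesin on its track, Mapt, which encodes tau, was lower at -0.34 (SE 0.06) and Map7d2 higher at 0.20 (SE 0.06). Of 8 other cargo adaptors tested, Mapk8ip1 (JIP1) was lower at -0.29 (SE 0.06), Fez2 lower at -0.46 (SE 0.14) and Ranbp2 higher at 0.15 (SE 0.05). The relatives of Armcx3 split, with Armcx2 lower at -0.24 (SE 0.06) and Armcx5 higher at 0.29 (SE 0.08) and the other 4 not called. Of 6 dynein and dynactin genes and regulators 2 were lower, Ndel1 at -0.25 (SE 0.05) and Pafah1b1 at -0.13 (SE 0.05), the latter outside the rule for named genes and named after its value was seen. None of the 3 kinesin light chains was called, at -0.19 to -0.12.

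Markers of other cells moved in the same comparison, in which 11.1% of all genes were called higher and 12.7% lower. All 5 microglial genes were called lower in MFN2 libraries 72 to 76 than in WT, with summed levels of 95.6, 90.2, 91.6, 78.7 and 101 CPM against 105, 140.1, 123 and 128.5 CPM, led by Csf1r. Of 5 astrocyte genes 3 were called lower, Gfap at -1.08 (SE 0.26), with summed levels of 4603, 4976, 4729, 4636 and 6030.0 CPM against 6453, 7320.0, 6346 and 6697 CPM, led by Slc1a2. None of 6 oligodendrocyte genes was called, at 22380.0 to 33950.0 against 23480.0 to 30100.0 CPM, and none of 6 motor neuron genes, at 199.6 to 263 against 178 to 370.1 CPM. Among 9 neuronal genes 2 were called higher and 1 lower. Of 3 endothelial genes 1 was called lower, Cldn5 at -0.82 (SE 0.17, edgeR FDR 0.00685), and of 7 forebrain genes tested 1 was called higher. None of the tested genes of the caudal Hox, Schwann cell, oligodendrocyte precursor, meningeal fibroblast, blood and skeletal muscle lists was called. None of these lists had a gene at 0 in all libraries, and their part in the levels of the 10 transport genes was not tested.

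**Figure D5:**
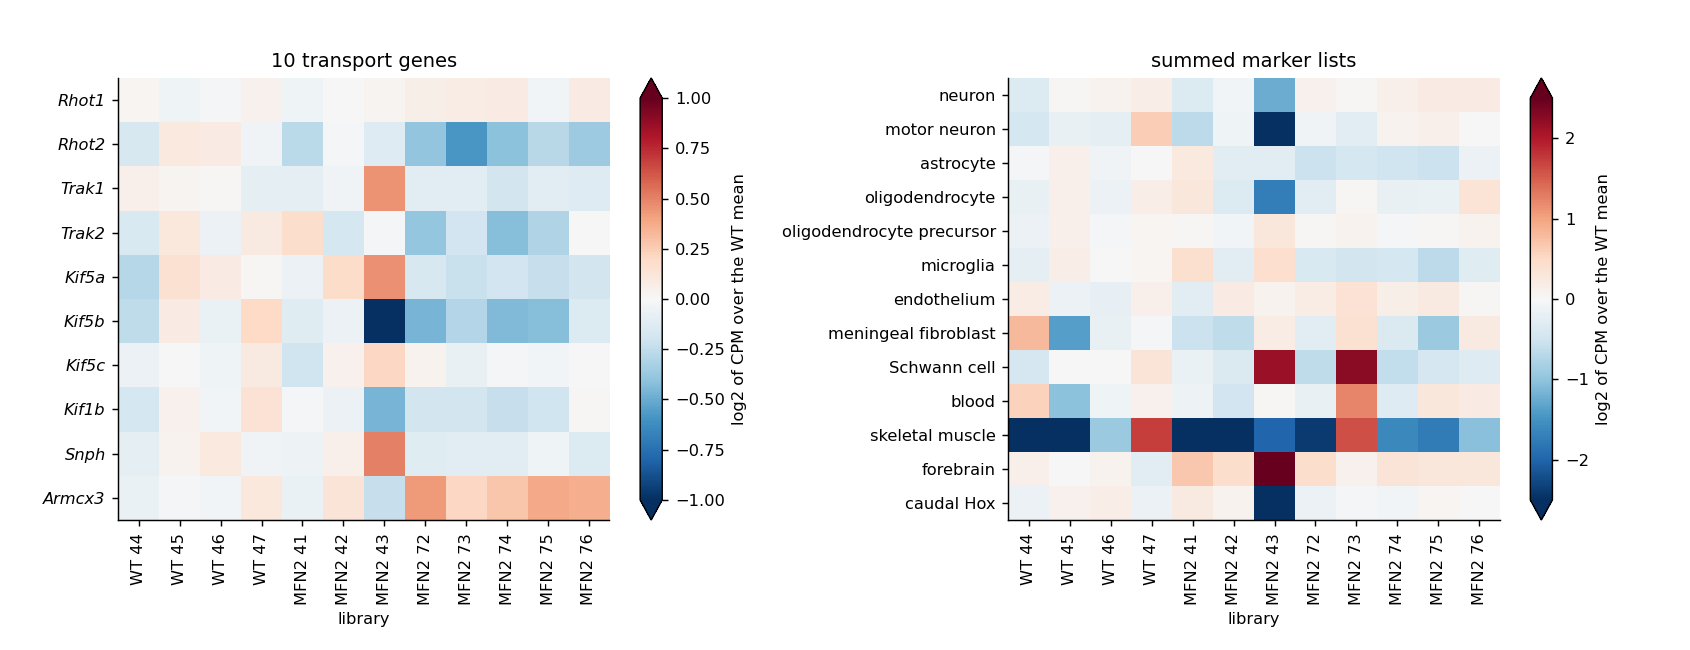
Log2 of CPM over the WT mean for the 10 genes (left) and for summed marker lists (right) in each library; colours saturate at the ends of each scale, which differ between panels. Library 43 departs in both panels, with Kif5b low among the transport genes and the forebrain list at 4685 CPM, beyond the colour scale.

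In library 43, 7 of the 10 genes lay outside the range of the other 11 libraries, as did 54.6% of the 15942 genes tested (25.9% above and 28.6% below). Kif5a (1.53 times the median of the others), Snph (1.47 times), Trak1 (1.45 times) and Kif5c (1.16 times) were the highest, and Kif5b (0.543 times), Kif1b (0.7575 times) and Armcx3 (0.780 times) the lowest. Rhot1, Rhot2 and Trak2 lay inside.

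The tested gene most like each member was found by Pearson's r of log2 CPM, first over 12 libraries and then over 11 without library 43. All of these values share library, depth and run of numbers, and they are a description. Over 11 libraries Trak2 was most like Mbp, the myelin basic protein gene (r = 0.99), and Snph most like Stmn3, a neuronal stathmin gene (r = 0.97). For Kif5b the most alike gene was Pex5l (r = 0.98), for Kif1b Dock5 (r = 0.97), for Kif5a Iscu (r = 0.96), for Kif5c Mettl24 (r = 0.94), for Rhot2 Cdh22 (r = 0.99), for Trak1 2010320M18Rik (r = 0.96) and for Rhot1 Trim23 (r = 0.92). Armcx3 was most like Zfp248 with library 43 and without it (r = 0.96 in both). The other 9 genes had a different nearest gene once library 43 was included, with Gatm for Kif1b (r = 0.98) and Enpp1 for Kif5b (r = 0.98). Among the members, Kif5b and Kif1b varied together with library 43 and without it (r = 0.97 and 0.94), whereas Kif5a and Kif5b had r = -0.19 over 12 libraries and 0.74 over 11.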

How the data were processed

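Lumbar spinal cord RNA of 8 MFN2 and 4 WT mice was sequenced as 75-base pairs. Per the labels and methods, the authors aligned reads with STAR to GRCm38.p6. The values they deposited are raw counts for each Ensembl gene and library. Neither how reads were counted nor the strand setting is given in the sources used here. Symbols, exon lengths and sequences came from GENCODE M21, which matched 49289 of 49548 genes. Genes above 1 CPM in at least 3 libraries of a comparison were scaled by TMM and tested over the whole table with edgeR 4.0.16 (R 4.3.3, quasi-likelihood, legacy form, robust, Benjamini-Hochberg, FDR of 0.05). The test was checked on simulated counts with larger changes than those of the members, the same dispersion for every gene and no outlying library. The methods name edgeR generalized linear models and this FDR, but neither the filter nor the form of the test. The paper reports genes that differ between MFN2 and WT mice, whereas the fit of all 12 libraries here called 0 genes. SEs were derived from the F statistic, and log2 CPM for correlations used a prior count of 2. P-loop codons were the first match to the Walker A pattern.

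In all, 4 comparisons were made: all MFN2 with WT, each MFN2 run with WT, and the MFN2 runs with each other. The members and lists were chosen with earlier results of these data known. Named genes were the members, up to 12 other transport genes by lowest FDR at or below 0.05, Mfn2, Eno2, the most alike genes and marker genes. Alternatives changed the filter, the scaling or the test (DESeq2 1.42.0, limma-voom 3.58.1), or used 3 groups in 1 fit, Xist or run as covariates, and each library left out. The run covariate without library 43 was added after seeing the data. Replicates of a group differed beyond sampling noise. Values of a few genes of the lists are not reported here.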

Additional observations from a re-analysis of the deposited data

Results flagged for a closer look

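A gap test for a lone high or low library was run on the CPM of the 10 genes in 3 groups (MFN2, WT, and MFN2 libraries 72 to 76), or 30 groups in all, of which chance gives about 1.5 (5.0%), and 4 passed. In the 8 MFN2 libraries, Trak1 (251 CPM) and Snph (281 CPM) were far above the others in library 43, with gaps of 0.802 and 0.751 of the range (beyond the 95% critical value for 8 libraries). In MFN2 libraries 72 to 76, Kif1b was highest in library 76 (2244 CPM, gap 0.816 of the range) and Rhot1 lowest in library 75 (59.1 CPM, gap 0.743), beyond that for 5 libraries. The 3 libraries of MFN2 41 to 43 were too few for this test.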

How the results depend on the processing

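No paired analysis was possible because the labels do not say which MFN2 and WT mice, if any, belong together. Over the 12 libraries and in MFN2 libraries 41 to 43 against WT, 0 of the 10 genes were called under every alternative run. The number of all genes called over the 12 libraries was 200 with DESeq2, 4 with Xist as a covariate and 0 to 19 with a library left out, the last without library 43. For libraries 41 to 43 against WT it was 5 with DESeq2, 0 with 3 groups in 1 fit, limma-voom or no filter, and 0 to 2 with a library left out. For libraries 72 to 76 against WT, 2 of the 10, Rhot2 and Armcx3 (1224 of all genes), were called with 3 groups in 1 fit, which takes in library 43. With scaling by library size alone, 3 of the 10 (4167) were called. Leaving out a library gave 2 to 7 of the 10 and 2350 to 4517 of all genes, lowest without WT library 45 and highest without WT library 44. Between the MFN2 runs, 2 of the 10 were called with 3 groups in 1 fit (1339 of all genes) and with DESeq2 (1795), 1 with no filter (342 of 36674 genes), and 0 to 2 (31 to 2375 of all genes) with a library left out, highest without library 43. The Kif5a to Kif5c log2 ratio, MFN2 minus WT, was 0.18 with MFN2 libraries 41 to 43 alone and -0.04 with all. The MFN2 runs lay on opposite sides of WT, with mean ratios of 0.90 in libraries 41 to 43, 0.54 in libraries 72 to 76 and 0.71 in WT. The cause of these shifts was not tested.

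Log2 fold changes that changed sign had not been called in either setting. Over the 12 libraries, scaling by library size alone gave 0.0207 for Trak1 and 0.0166 for Kif5a, and limma-voom gave -0.0024 for Kif5c and -0.0010 for Snph. With the run of numbers as a term, Rhot1 was at -0.0044, Trak1 at 0.13, Trak2 at 0.0038, Kif5a at 0.21 and Armcx3 at -0.0484, and with library 43 also left out Rhot1 was at -0.0195, Trak2 at 0.0117, Kif5a at 0.0659 and Kif5c at -0.0738. For libraries 41 to 43 against WT, Rhot1 was at -0.0044 with 3 groups in 1 fit and at -0.0004 with no filter. For libraries 72 to 76 against WT, Kif5c was at 0.0528 with scaling by library size. Between the MFN2 runs, Kif1b was at 0.0147 with 3 groups in 1 fit, 0.0004 with DESeq2, 0.0005 with RLE scaling, 0.0630 with library size and 0.0043 with limma-voom, Kif5b at 0.0394 with library size and 0.0299 with limma-voom, and Kif5c at 0.0077 with library size.

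With a library left out, the ranges over the 12 libraries were -0.1176 to 0.0216 for Kif5a, -0.0318 to 0.0326 for Kif5c and -0.0737 to 0.0463 for Snph. For libraries 41 to 43 against WT they were -0.0101 to 0.0384 for Rhot1, -0.0523 to 0.2499 for Trak1, -0.0671 to 0.0991 for Trak2, -0.0637 to 0.1516 for Kif5c and -0.1324 to 0.0437 for Armcx3. For libraries 72 to 76 against WT Kif5c ran from -0.0371 to 0.0161. Between the MFN2 runs Kif5b ran from -0.2648 to 0.1358, Kif5c from -0.1512 to 0.0488 and Kif1b from -0.1216 to 0.0854.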
